A study of Mus musculus with 6 samples.

Results

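Transcripts of 37 genes of glucose breakdown and of the response to low oxygen were compared between serrated polyps of the mouse cecum and the tissue around them. The genes were chosen by symbol, 20 for glycolysis and 17 for the hypoxia response, and all 37 were found among the 37991 genes of the count tables. RNA was sequenced from 3 HBUS mice, numbered 1119, 1192 and 1199, with 1 polyp and 1 piece of normal distal cecum near it taken from each animal after 60 weeks. In HBUS animals the intestinal epithelium expresses 2 transgenes, the growth factor HB-EGF and US28, a chemokine receptor encoded by a herpesvirus, and polyps whose crypts have a serrated outline form in the cecum. Both tissues of a pair therefore carry both transgenes, and no tissue of a mouse without them was analysed here. What drives the transgenes, and the sex of the animals, is not given in the sources used here. The comparison asked which of these transcripts differed between a polyp and the surrounding tissue of the same mouse. Pieces of whole tissue were sequenced, so fewer cells of a type and less RNA per cell cannot be told apart.

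Glycolysis splits glucose into pyruvate in the cytosol, and lactate dehydrogenase can turn that pyruvate into lactate, which lets the pathway run without oxygen. When oxygen is plentiful, prolyl hydroxylases mark the HIF alpha subunits for destruction through the von Hippel-Lindau protein. When oxygen falls, HIF-1 alpha or HIF-2 alpha pairs with ARNT and binds short DNA elements with the core RCGTG near genes for glucose uptake, glycolysis, mitochondrial clearance, pH control and collagen processing. The epithelium of the large intestine lies beside an anaerobic lumen and is known for low oxygen at its surface even in health. HIF activity is controlled largely at the protein level, which RNA counts do not measure.

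The DNA upstream of the start sites was searched for that core, since it is the element through which HIF acts on its targets. The letters searched were ACGTG and GCGTG on both strands in the 250 bases before each start. RefSeq (GRCm38.p6) gave promoters for 34 of the 37 members, the exceptions being Epas1, Bnip3l and Ndrg1. At least 1 match lay upstream of 31 of these 34 genes, or in 39 of 47 promoters (83.0%, since some genes have several starts). Windows of the same length held a match at 55.4% of the promoters of tested genes and at 38.6% of all promoters in the table. The hypoxia genes had one in 14 of 15 promoters and the glycolysis genes in 25 of 32 (78.1%). The 5 windows printed belong to the 4 members with the smallest adjusted p and to Ldha, the most abundant member per length, at its first start site. Each runs 5′ to 3′ in the direction of the gene, with the matches in capitals (CACGT and CACGC are matches on the opposite strand). Coordinates are those of GRCm38.p6, while the build behind the counts is not stated.
Ero1l, chr14:45318573-45318822, minus strand: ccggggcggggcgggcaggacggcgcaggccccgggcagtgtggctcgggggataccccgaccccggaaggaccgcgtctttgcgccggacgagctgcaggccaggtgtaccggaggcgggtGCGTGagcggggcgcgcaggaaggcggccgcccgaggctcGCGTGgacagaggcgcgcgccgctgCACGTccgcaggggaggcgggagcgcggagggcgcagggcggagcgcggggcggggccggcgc
Egln3, chr12:54203875-54204124, minus strand: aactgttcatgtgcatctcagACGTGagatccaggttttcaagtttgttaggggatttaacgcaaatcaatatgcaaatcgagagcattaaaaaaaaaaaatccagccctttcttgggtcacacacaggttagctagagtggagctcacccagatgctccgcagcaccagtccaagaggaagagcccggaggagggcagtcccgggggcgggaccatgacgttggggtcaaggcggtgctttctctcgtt
Slc2a1, chr4:119108495-119108744, plus strand: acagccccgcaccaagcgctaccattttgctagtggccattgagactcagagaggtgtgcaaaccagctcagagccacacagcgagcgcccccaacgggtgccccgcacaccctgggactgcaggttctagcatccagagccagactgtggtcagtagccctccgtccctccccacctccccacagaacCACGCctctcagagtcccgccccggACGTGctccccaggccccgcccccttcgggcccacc
Bnip3, chr7:138909507-138909756, minus strand: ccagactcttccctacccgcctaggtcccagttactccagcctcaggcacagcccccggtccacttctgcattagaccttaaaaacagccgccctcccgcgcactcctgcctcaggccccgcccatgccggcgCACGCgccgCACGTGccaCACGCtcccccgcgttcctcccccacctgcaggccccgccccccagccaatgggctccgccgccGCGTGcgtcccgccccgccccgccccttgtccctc
Ldha, chr7:46845554-46845803, plus strand: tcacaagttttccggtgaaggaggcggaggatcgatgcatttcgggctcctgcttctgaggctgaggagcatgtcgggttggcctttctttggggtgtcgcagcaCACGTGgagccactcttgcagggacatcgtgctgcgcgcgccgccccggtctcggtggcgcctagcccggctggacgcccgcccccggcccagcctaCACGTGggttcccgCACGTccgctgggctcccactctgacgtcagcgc
Counted back from the start site as position -1, the first bases of the matches of Ero1l lay at -128, -88 and -63. Egln3 had 1 match, at -229, and Slc2a1 had 2, at -61 and -36. Bnip3 had 5 matches and Ldha also 5, where each CACGTG, which reads the same on both strands, counts as 2 overlapping matches. A match is a description of these letters and was not tested for binding.

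Total counts ran from 6632645 to 13350119 per library, of which the mitochondrial rRNAs took 46.3% to 75.3%. Counts outside these rRNAs ran from 1852065 to 5096066, of which 19874 to 55181 fell on the members. Levels are given as CPM, the count per unit of library size normalised for composition, and 3 counts, the floor of detection, correspond to 0.213 to 0.678 CPM (counting error only). At equal depth 12336 genes had at least 1 count in the polyp of mouse 1192, and 14270 to 16082 did in each of the other libraries. The labels' protocols describe a kit that removes mammalian RNA before bacterial RNA is sequenced, so the mouse counts may come from what that step left. Epithelial markers were abundant in both tissues, with a summed level of 4022 to 6917 CPM in surrounding tissue and 6556 to 8588 CPM in polyps, and 3 of 10 rose (Krt8, Krt18 and Krt19). Fibroblast markers summed to 82.4 to 187 CPM around the polyps and 306 to 683 CPM in them, and 6 of 9 rose. Of the other lists, 4 of 8 absorptive colonocyte, 3 of 7 goblet cell and 3 of 8 smooth muscle markers fell. Only 2 of 10 enteric neuron and glia markers could be tested, and 1 (Ret) rose. Of all genes tested, 1.71% were called higher and 1.10% lower. No marker was called among those tested of endothelium (7 of 8), macrophages (8 of 9), neutrophils (3 of 6), lymphocytes (2 of 9), red blood cells (5 of 7) or the cell cycle (8 of 8). All 7 endothelial markers tested had the higher fitted level in polyps, with a median log2 fold change of 1.47. The part of these shifts in the members' values was not tested, and of all markers found in the tables only Sox10 was at 0 in all 6 libraries.

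In the polyps, 2 of the 35 members tested rose, both from the hypoxia response. They were Ero1l, the endoplasmic reticulum oxidase that drives disulfide bond formation, and Egln3, an oxygen-sensing prolyl hydroxylase that is itself a HIF target. Of all 11970 genes tested, 1.71% were called higher. No member was called lower (background 1.10%) by edgeR's quasi-likelihood test, blocked by mouse and adjusted over all genes (Benjamini-Hochberg, two-sided). At an unadjusted p under 0.05 there were 13 members higher and 1 lower (Epas1), where 7.74% and 5.98% of all genes were. DESeq2 called 0 members lower, and limma-voom called 1 (Gapdh).

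The log2 fold change, polyp over surrounding tissue, was positive in 29 of the 35 members tested, while 48.0% of all genes had a positive value. The median over members was 0.31, beside -0.03 over all genes tested, and mice 1119, 1192 and 1199 gave 0.41, 0.24 and 0.23. A shift of this size was not particular to the members, since the 10 epithelial markers had a median of 0.35 and all 10 were positive. In 17 members the polyp was higher in every pair (18.9% of all genes), and in 2, Gapdh and Epas1, it was lower in every pair (18.5%). All 3 polyps lay above all 3 surrounding samples in 12 members (9.33% of all genes), and all lay below in the same Gapdh and Epas1 (8.67%). The median of the 18 glycolysis members tested was 0.23, and 15 were positive. For the 17 hypoxia members it was 0.37, with 14 positive. By mouse, the glycolysis median ran from 0.17 to 0.31 and the hypoxia median from 0.16 to 0.53, so the groups overlapped and the difference between them was not tested.

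**Figure D1:**
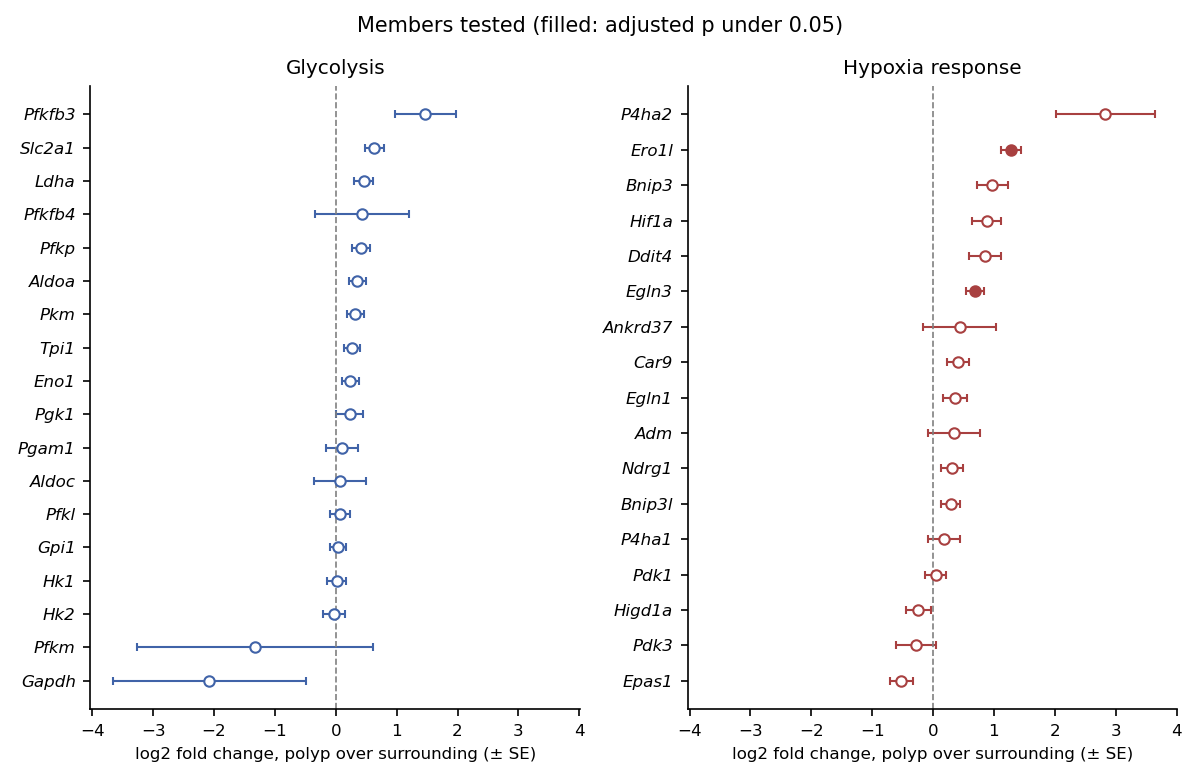
Log2 fold change of each tested member, polyp over surrounding tissue, with its standard error (n = 3 pairs), with glycolysis genes on the left and hypoxia genes on the right. Filled points passed an adjusted p of 0.05, and these were Ero1l at 1.28 and Egln3 at 0.69, with most open points to the right of 0.

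Glucose enters most cells through GLUT1 (Slc2a1) and is trapped by hexokinases. Slc2a1 (ENSMUSG00000028645) was at 239, 152 and 348 CPM in surrounding tissue of mice 1119, 1192 and 1199 and at 421, 264 and 422 CPM in their polyps. Each polyp was above its own surrounding sample, but the polyp of mouse 1192 lay below the surrounding sample of mouse 1199, so the groups overlapped. The log2 fold change was 0.63 ± 0.15 (SE, n = 3 pairs), 1.55-fold, which missed the threshold with an adjusted p of 0.0721. It passed the threshold in 4 of 13 alternatives (DESeq2, limma-voom, no filter on low counts and a mean of at least 5 CPM) and missed it in the other 9. Each hexokinase had a similar mean in surrounding tissue and in polyps. Hk1 averaged 76.6 ± 13.8 CPM around the polyps and 76.6 ± 1.85 CPM in them (SD, n = 3), and Hk2, the form that HIF induces, 206 ± 64.99 and 196 ± 10.3 CPM.

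The upper steps rearrange and split the sugar, with phosphofructokinase as the main control point. Pfkfb3, which makes the fructose 2,6-bisphosphate that activates phosphofructokinase, had the smallest p of this group. It was at 4.45, 3.27 and 1.81 CPM in surrounding tissue and 5.67, 8.90 and 13.5 CPM in polyps of mice 1119, 1192 and 1199. The groups did not overlap, and the 2.77-fold difference (log2 1.47 ± 0.50) had an adjusted p of 0.204. Without mouse 1199 the log2 value was 0.89, and without mouse 1119 it was 2.07. Aldoa, Tpi1 and Pfkp, an aldolase, the triose phosphate isomerase and the platelet-type phosphofructokinase, also had all polyps above all surrounding samples. Their log2 fold changes were 0.36 ± 0.13, 0.27 ± 0.13 and 0.41 ± 0.15, with adjusted p from 0.224 to 0.417. Gpi1, which turns glucose 6-phosphate into fructose 6-phosphate, averaged 312 ± 29.5 and 318 ± 24.6 CPM. The log2 fold changes of Pfkl (liver-type phosphofructokinase), Pfkfb4 and Aldoc were 0.07, 0.43 and 0.07, each under its standard error. Pfkm, the muscle form, had 15 counts in both samples of mouse 1119 and at most 3 in any other library.

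The lower steps yield ATP and pyruvate. Pkm, pyruvate kinase, had the smallest p among them, with 522, 379 and 619 CPM in surrounding tissue and 668, 533 and 666 CPM in polyps. Every polyp was above its pair, although the polyp of mouse 1192 fell among the surrounding samples. The log2 fold change of 0.32 ± 0.14 had an adjusted p of 0.364. Eno1, an enolase, averaged 117 ± 13.6 CPM around the polyps and 137 ± 9.14 CPM in them without overlap (log2 0.24 ± 0.14, adjusted p = 0.543). Pgk1 and Pgam1, phosphoglycerate kinase and mutase, had log2 fold changes of 0.23 ± 0.22 and 0.10 ± 0.26. In both, surrounding tissue of mouse 1192 was the highest of the 6 samples, at 118 CPM for Pgk1 and 44.7 CPM for Pgam1, so that this pair went against the other pairs. Eno2, the neuronal enolase, was too low to be tested, with 5, 12 and 0 counts in surrounding tissue and 0, 0 and 2 in polyps.

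Gapdh, which oxidises glyceraldehyde 3-phosphate, had 11.6, 357 and 11.7 CPM in surrounding tissue and 8.69, 10.4 and 8.25 CPM in polyps. The surrounding library of mouse 1192 stood 30.4 times above the next highest library, and the other 5 libraries lay between 8.25 and 11.7 CPM. The log2 ratio of polyp to surrounding tissue was -0.39, -5.04 and -0.48 in mice 1119, 1192 and 1199. The fitted log2 fold change was -2.08 ± 1.59 (adjusted p = 0.705), and it was -0.49 with an adjusted p of 0.567 without mouse 1192. With limma-voom it was -3.83 with an adjusted p of 0.0125. In the annotation used for names, GENCODE M21, 71 other genes matched the Gapdh transcript at 95% identity or more over at least 50% of its length, most of them processed pseudogenes. The tables held 39 of these copies, and their summed level ran from 8.66 to 10.3 CPM across the 6 libraries, so the level of Gapdh is uncertain where counting split or dropped shared reads.

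In that surrounding library of mouse 1192, 18 genes had at least 20 CPM and at least 4 times the level of every other library. Of these, 12 were ribosomal protein genes by symbol (Rpl or Rps), such as Rpl23a at 48.6 CPM beside at most 0.711 CPM elsewhere, and Gapdh was the only member. The other libraries had 0 to 10 such genes. Eno1 also has near-identical copies, Eno1b and Gm4735, which together had 164 counts in surrounding tissue and 303 in the polyp of mouse 1192 but 1 to 8 in each library of the other mice. In CPM the pair of copies was at 11.7 and 24.8 in mouse 1192 and at most 1.14 elsewhere. Copies of Gpi1 (Gm1840, at 1.78 to 5.11 CPM), Pgk1 and Ldhb (no counts) were low, and those of Ldha, Pkm and Bnip3 were not among the genes counted.

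**Figure D2:**
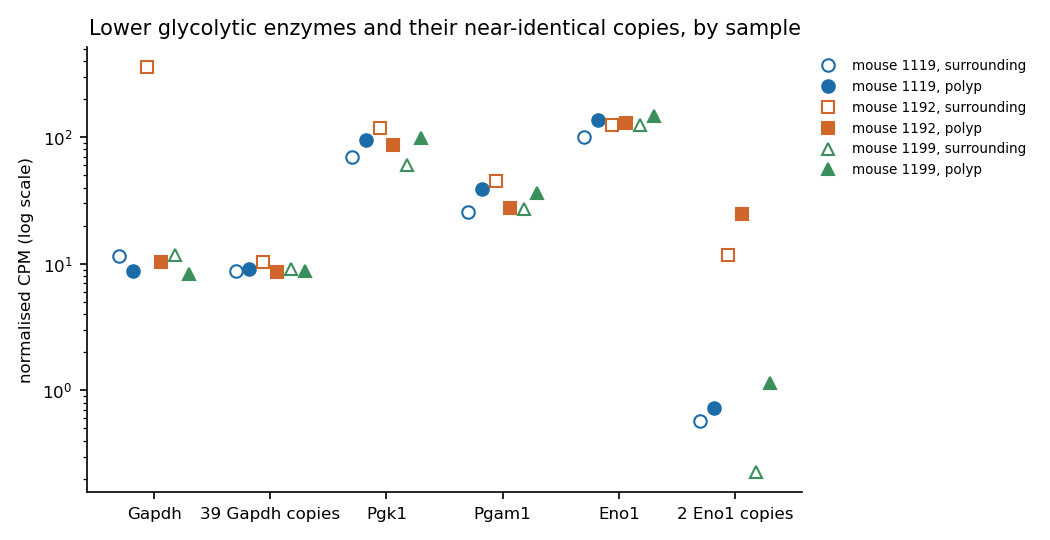
Normalised CPM on a log scale in each of the 6 libraries for Gapdh, Pgk1, Pgam1, Eno1 and the summed copies of Gapdh and Eno1 (open symbols surrounding tissue, filled symbols polyps, 1 symbol per mouse). Gapdh stands at 357 CPM in surrounding tissue of mouse 1192 and at most 11.7 CPM elsewhere, and the Eno1 copies are high in both samples of mouse 1192.

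Of the Ldha and Ldhb transcripts, almost all were Ldha, which encodes the form suited to making lactate. Ldha was at 489.7, 337 and 590.1 CPM in surrounding tissue and at 596, 606 and 704 CPM in polyps of mice 1119, 1192 and 1199. All polyps were above all surrounding samples, though that of mouse 1119 exceeded the surrounding sample of mouse 1199 by a small margin. The log2 fold change was 0.46 ± 0.16, 1.38-fold, with an adjusted p of 0.2102. Ldhb was not tested, with 7, 9 and 3 counts around the polyps and 0, 0 and 13 in them. Per kilobase of exon, Ldha was the most abundant member in both tissues (143 and 192 CPM per kb), followed by Aldoa (106 and 135) and Pkm (101 and 124).

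Among the HIF subunits and oxygen sensors, Egln3 (ENSMUSG00000035105), which hydroxylates HIF alpha subunits, rose. It was at 76.1, 50.2 and 55.1 CPM in surrounding tissue and 122, 72.95 and 99.9 CPM in polyps. The polyp was higher in 3 of 3 pairs, while the polyp of mouse 1192 was below the surrounding sample of mouse 1119. Means were 60.5 ± 13.8 and 98.4 ± 24.8 CPM (SD, n = 3), 1.61-fold, with a log2 fold change of 0.69 ± 0.15 and an adjusted p of 0.0406. The call ended when any 1 mouse was left out, with adjusted p of 0.176 without mouse 1119, 0.0728 without mouse 1192 and 0.314 without mouse 1199. It also ended with non-robust spread estimates (0.0621) and without the block for mouse (0.218). Its log2 fold change stayed between 0.60 and 0.73 over the 13 alternatives. Egln1, the main sensor in most tissues, averaged 25.9 ± 6.01 and 32.7 ± 1.89 CPM (log2 0.37 ± 0.20, adjusted p = 0.482).

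Hif1a encodes the HIF-1 alpha subunit. It was at 235, 122 and 244 CPM in surrounding tissue and 325, 397 and 342 CPM in polyps of mice 1119, 1192 and 1199. The groups did not overlap, and mouse 1192 had both the lowest surrounding sample and the highest polyp. The log2 fold change was 0.88 ± 0.24 with an adjusted p of 0.125, and it was 0.44 without mouse 1192. DESeq2, limma-voom and the fit without a filter on low counts called it higher. Epas1, which encodes HIF-2 alpha, went the other way, with 62.96, 101 and 64.6 CPM around the polyps and 46.1, 51.96 and 59.3 CPM in them. All polyps were below all surrounding samples, and the log2 fold change of -0.52 ± 0.19 had an adjusted p of 0.227. Epas1 is known to be strong in endothelium. Endothelial markers summed to 9.89 to 21.5 CPM around the polyps and 23.8 to 50.5 CPM in them, and none was called. Smooth muscle markers summed to 182 to 211 CPM around the polyps and 16.3 to 79.7 CPM in them, and 4 of 8 absorptive colonocyte markers fell. The part of any of these cell types in the Epas1 value was not tested.

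Pyruvate dehydrogenase kinases switch off the enzyme that sends pyruvate into mitochondria. Pdk1, the form that HIF-1 induces, averaged 60.3 ± 8.71 CPM in surrounding tissue and 61.9 ± 7.12 CPM in polyps (log2 0.04 ± 0.18). Pdk3 had the smaller p of the pair, with 11.7, 10.03 and 11.3 CPM around the polyps and 10.5, 11.3 and 5.83 CPM in them. The groups overlapped, and the polyp of mouse 1199 was the only low sample (log2 -0.29 ± 0.33, adjusted p = 0.771).

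Bnip3 and Bnip3l are receptors that hand mitochondria to autophagy. Bnip3 was at 25.4, 12.2 and 35.5 CPM in surrounding tissue and 50.2, 38.5 and 42.5 CPM in polyps of mice 1119, 1192 and 1199. The groups did not overlap, and the surrounding sample of mouse 1192 was the lowest. The 1.96-fold difference (log2 0.97 ± 0.25) had an adjusted p of 0.09197, and DESeq2, limma-voom and the fit without a filter on low counts called it. In GENCODE M21, genes on the opposite strand overlap 22.3% of the exon length of Bnip3, 22.5% of that of Higd1a, 26.4% of that of Ankrd37 and 11.5% of that of Gpi1, and a gene on the same strand overlaps 15.3% of that of Pkm. Reads from these stretches may not have been told apart. Bnip3l averaged 88.1 ± 14.8 and 109.9 ± 30.7 CPM (log2 0.29 ± 0.16), with both values of mouse 1192 near 74.6 CPM. Higd1a, a small protein of the respiratory chain, averaged 59.3 ± 12.1 and 50.003 ± 8.44 CPM (log2 -0.24 ± 0.20).

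Collagen hydroxylation and oxidative folding held the member with the largest shift among those called. Ero1l (ENSMUSG00000021831) was at 60.5, 30.4 and 55.8 CPM in surrounding tissue and 145, 90.03 and 111 CPM in polyps of mice 1119, 1192 and 1199. Every polyp was above every surrounding sample, and mouse 1192 was the lowest of both groups. The mean went from 48.9 ± 16.2 to 115 ± 27.5 CPM (SD, n = 3), a 2.42-fold rise with a log2 fold change of 1.28 ± 0.16 and an adjusted p of 0.00689. It was called with each mouse left out in turn, with adjusted p from 0.0165 to 0.0382, but not without the block for mouse (0.0724). P4ha2, a catalytic subunit of collagen prolyl hydroxylase, was at 1.04, 0.356 and 0.452 CPM around the polyps (11, 5 and 2 counts) and at 3.26, 5.80 and 3.70 CPM in them. The groups did not overlap, and the log2 fold change of 2.83 ± 0.82 had an adjusted p of 0.126. P4ha1, also a catalytic subunit and more abundant than P4ha2, averaged 13.9 ± 4.83 and 16.001 ± 5.87 CPM (log2 0.18 ± 0.26). Fibroblasts make most collagen, and 6 of 9 fibroblast markers rose in the same polyps, with a median log2 fold change of 1.75, whose part in the values of this group was not tested.

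The remaining hypoxia genes act in stress signalling and pH control, and none was called. Ddit4, an inhibitor of the growth kinase mTORC1, had the smallest p, with 14.9, 18.999 and 18.1 CPM in surrounding tissue and 38.6, 20.99 and 37.7 CPM in polyps. The groups did not overlap, but the polyp of mouse 1192 was close to the surrounding samples. The log2 fold change was 0.85 ± 0.26 (adjusted p = 0.149), and without mouse 1192 it was 1.19 with an adjusted p of 0.00969. Car9, the cell-surface carbonic anhydrase widely used as a hypoxia marker, averaged 27.95 ± 7.24 and 37.3 ± 9.91 CPM and was higher in the polyp of every pair (log2 0.41 ± 0.18, adjusted p = 0.353). Ndrg1, a stress-induced gene of differentiated epithelium, averaged 349 ± 142 and 414 ± 52.2 CPM. Adm, a vasodilator peptide, was between 3.84 and 4.34 CPM around the polyps and 4.82 and 5.43 CPM in them (log2 0.35 ± 0.43). Ankrd37 ran from 2.84 to 6.55 CPM around the polyps and from 1.88 to 12.6 CPM in them.

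**Figure D3:**
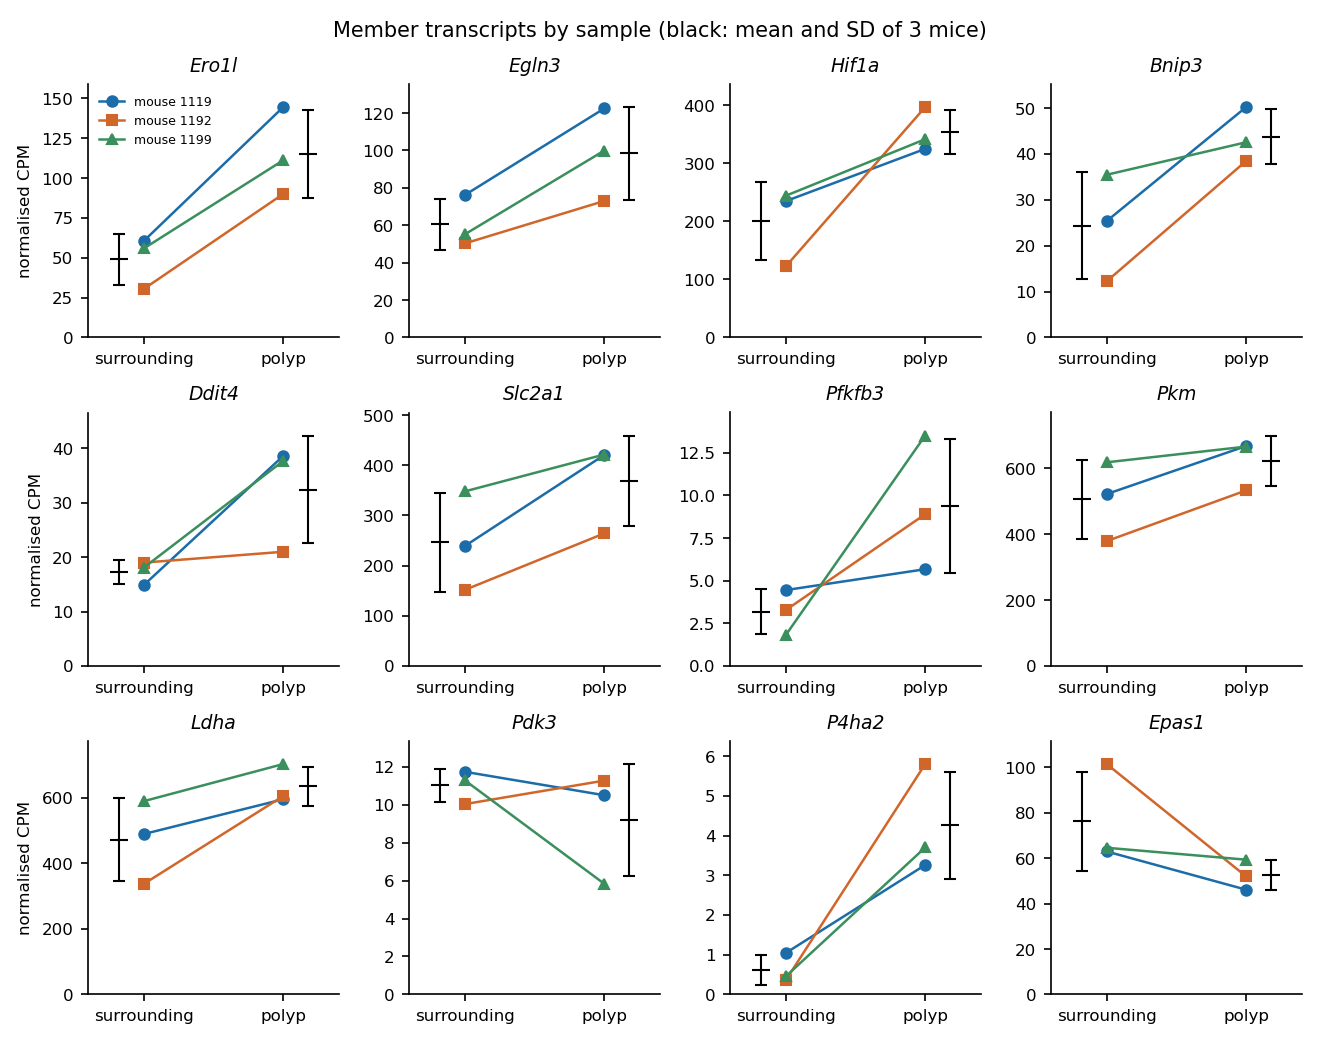
Normalised CPM of 12 members in surrounding tissue and polyp, with 1 line per mouse, and the mean and SD of the 3 mice in black; each panel starts at 0. All 3 lines go up for Ero1l, Egln3, Slc2a1 and Hif1a, all go down for Epas1, and Ero1l goes from a mean of 48.9 to 115 CPM.

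Several of these enzymes exist as families of genes, so the share of each form was taken from levels per kilobase of exon, as a description. The length is that of all annotated exons of a gene merged, so the shares depend on the annotation. For Pfkp it is 13401 bases and for Pfkl 6675. In CPM without this division, Pfkp averaged 116 around the polyps and 153 in them, above Pfkl at 87.0 and 91.1. Hif1a made up 77.96%, 53.3% and 78.2% of the summed Hif1a and Epas1 level in surrounding tissue and 86.98%, 87.9% and 84.5% in polyps of mice 1119, 1192 and 1199. Every polyp was above every surrounding sample. Egln3 made up 62.7% ± 7.84 of the Egln1 to Egln3 level around the polyps and 72.1% ± 3.66 in them (SD, n = 3), higher in the polyp of each pair but with overlap. Hk2 held 78.9% ± 3.29 and 78.5% ± 0.785 of the hexokinase level. Pfkp held 39.5% ± 4.71 and 45.4% ± 3.25 of the phosphofructokinase level, and Aldoa 84.9% ± 2.92 and 90.1% ± 3.68 of the aldolase level. Pdk1 made up 31.2% ± 0.577 of the 4 pyruvate dehydrogenase kinases in surrounding tissue and 47.03% ± 9.09 in polyps, while Pdk4 held 29.5% ± 8.53 and 11.4% ± 6.87. P4ha2 went from 3.05% ± 2.098 to 16.7% ± 10.3 of the P4ha1 and P4ha2 level, on low counts.

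**Figure D4:**
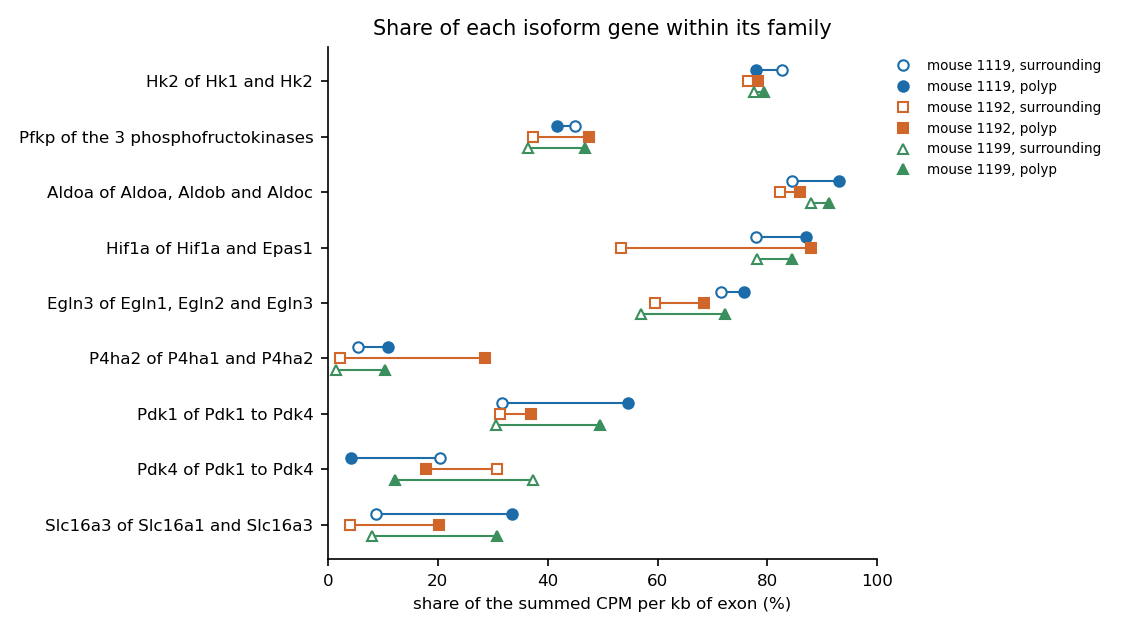
Share of each named gene in the summed CPM per kb of exon of its family, in percent, with open symbols for surrounding tissue and filled symbols for polyps, joined by mouse. The Hk2 share lies between 76.4% and 82.6% in all samples, while the shares of Hif1a, Pdk1 and Slc16a3 are higher in the polyp of each mouse.

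Beyond the members, 69 genes of neighbouring pathways were read from the same fit. Of the 65 tested, 4 rose and 4 fell, where 2.82% of all genes were called in either direction. Lactate leaves or enters cells through the monocarboxylate transporters, and the 2 measured moved in opposite directions. Slc16a3 (MCT4), the exporter of glycolytic cells and a HIF-1 target, was at 31.7, 16.3 and 31.6 CPM around the polyps and 85.2, 55.3 and 65.2 CPM in them, without overlap. It rose 2.67-fold (log2 1.42 ± 0.19, adjusted p = 0.00696) and stayed past the threshold in all 13 alternatives. Slc16a1 (MCT1), which colonocytes use to take up butyrate and lactate, went from 275, 317 and 299 CPM to 140.3, 182 and 122 CPM, also without overlap. It fell 2.03-fold (log2 -1.02 ± 0.15, adjusted p = 0.0103), a call lost without mouse 1199 (adjusted p = 0.0819). Per length, the Slc16a3 share of the 2 transporters was 6.98% ± 2.51 around the polyps and 28.2% ± 7.07 in them. In the same polyps 4 of 8 absorptive colonocyte markers fell, and their part in the Slc16a1 value was not tested. Bsg, the partner that brings both transporters to the membrane, and the mitochondrial pyruvate carriers Mpc1 and Mpc2 were not called.

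Of 10 genes of pyruvate dehydrogenase and its regulators, 1 fell (1.10% of all genes) and none rose (1.71%). Pdk4, the kinase induced by fasting and fatty acids, was at 14.9, 27.3 and 37.7 CPM in surrounding tissue and 2.41, 12.7 and 6.40 CPM in polyps. It was 4.09-fold lower without overlap (log2 -2.03 ± 0.34, adjusted p = 0.01599), a call lost without mouse 1119 (adjusted p = 0.0862), without mouse 1199 (0.195) and without the block for mouse (0.204). Among 8 tested genes of gluconeogenesis and fructose use, 2 fell, where 1.10% of all genes did. Pck1, which makes phosphoenolpyruvate from oxaloacetate, went from 5.30, 12.03 and 9.49 CPM to 1.33, 3.02 and 2.99 CPM (log2 -1.88 ± 0.40, adjusted p = 0.0394). Slc5a1, the sodium-driven glucose transporter of the brush border, went from 24.7, 21.5 and 16.3 CPM to 11.2, 10.3 and 7.26 CPM (log2 -1.12 ± 0.24, adjusted p = 0.0434). In both genes all polyps were below all surrounding samples, but neither call held when any 1 mouse was left out, with adjusted p up to 0.226 for Pck1 and 0.254 for Slc5a1, or without the block for mouse (0.114 and 0.111). In the same polyps 4 of 8 absorptive colonocyte markers fell, with a median log2 fold change of -1.07, and their part in the values of Pdk4, Pck1 and Slc5a1 was not tested.

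edgeR called none of the 8 pentose phosphate genes. In all 8 the polyps had the higher fitted level, as in 48.0% of all genes. The median log2 fold change was 0.32, beside 0.35 for the epithelial markers. An unadjusted p under 0.05 in that direction was found for 3 of the 8 and for 7.74% of all genes. The smallest p was that of H6pd, the glucose 6-phosphate dehydrogenase of the endoplasmic reticulum, at 5.49, 2.92 and 3.61 CPM around the polyps and 11.3, 3.92 and 12.7 CPM in them (log2 1.07 ± 0.40, adjusted p = 0.254). The polyp of mouse 1192 lay among the surrounding samples. Of 9 glycogen genes tested none was called, with 1 below an unadjusted p of 0.05, Ugp2, which makes UDP-glucose. It was at 126, 122 and 139 CPM around the polyps and 109, 89.4 and 107 CPM in them (log2 -0.34 ± 0.14, adjusted p = 0.311). The groups did not overlap. Of 6 other HIF pathway components none was called and 1 had an unadjusted p under 0.05. This was Arnt2, a relative of ARNT, at 1.61, 2.06 and 1.36 CPM around the polyps and 3.74, 4.66 and 6.83 CPM in them, without overlap (log2 1.53 ± 0.57, adjusted p = 0.251).

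Among 19 tested genes that hypoxia is known to induce in other settings, 3 rose (background 1.71%) and none fell (1.10%). An unadjusted p under 0.05 was found for 6 in the higher direction (7.74% of all genes) and for 1 in the lower (5.98%). The median log2 fold change was 0.67, and 13 were positive, where 48.0% of all genes were. Bhlhe40, a repressor of the circadian clock, was at 67.4, 56.4 and 74.3 CPM in surrounding tissue and 159, 104 and 113 CPM in polyps (log2 0.92 ± 0.16, adjusted p = 0.0195). Loxl2, which cross-links collagen, went from 4.35, 1.92 and 6.55 CPM to 17.9, 10.6 and 18.8 CPM (log2 2.00 ± 0.33, adjusted p = 0.0146). Both were without overlap between the groups, and each lost its call when mouse 1119 was left out (adjusted p = 0.130 and 0.105) or mouse 1199 was (0.0801 and 0.0979), Bhlhe40 also without mouse 1192 (0.0579). Without the block for mouse neither was called (0.0724 and 0.0866). Loxl2 is also made by fibroblasts and other stromal cells, and the part of the fibroblast markers, which rose in 6 of 9 cases, was not tested. Vegfa, the best known HIF target, was at 39.5, 24.4 and 50.8 CPM around the polyps and 84.8, 31.9 and 59.2 CPM in them. It was higher in each pair but overlapped between groups and was not called (log2 0.57 ± 0.20, adjusted p = 0.213).

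**Figure D5:**
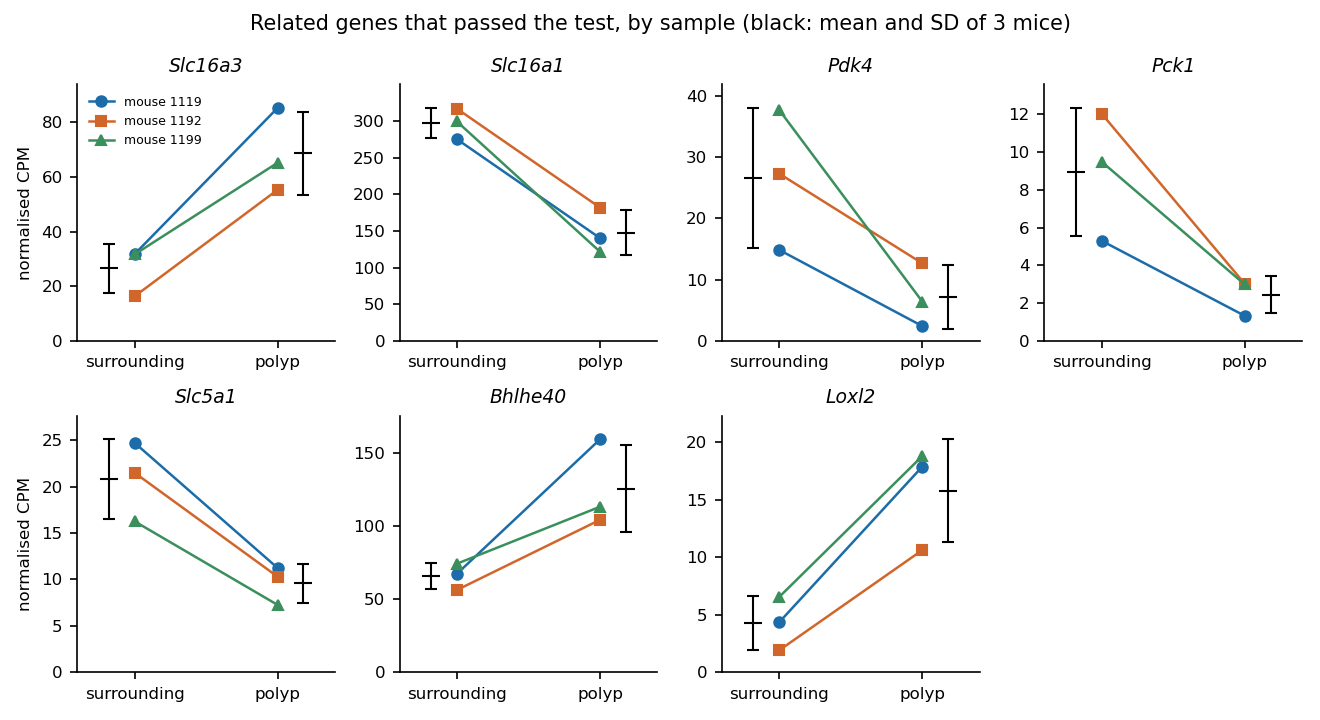
Normalised CPM of 7 related genes that passed the test, in surrounding tissue and polyp, with 1 line per mouse, and the mean and SD of the 3 mice in black; each panel starts at 0. Slc16a3, Bhlhe40 and Loxl2 are higher and Slc16a1, Pdk4, Pck1 and Slc5a1 lower in the polyp of all 3 mice.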

How the data were processed

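RNA of 6 libraries (polyp and surrounding cecum of 3 mice) was compared. The authors deposited raw counts of each gene, not normalised, per the file headers. The submitters' processing notes name HTSeq 0.5.3p9, TopHat2 2.0.7 and Bowtie 0.12.9. Tool settings, strand, build and annotation are not given in the sources read. GENCODE M21 named 32919 of 37991 identifiers, leaving 5072, and gave exon lengths (all annotated exons of a gene merged).

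Tests used edgeR 4.0.16 under R 4.3.3, with TMM normalization, a filter on low counts (filterByExpr with the design, minimum count 10, 11970 genes kept), the quasi-likelihood test with robust spread and the mouse as a block, adjusted by Benjamini-Hochberg and called under 0.05. Standard errors come from the test statistic, whose spread borrows from other genes (2 residual degrees of freedom per gene, common biological variation 37.5%). Pairing follows the series' design text and the mouse numbers in the titles. Deviations from the tissue means correlated at 0.105, 0.128 and 0.138 within mice, and at -0.0908 to -0.00862 between different mice. Such deviations sum to 0 over the mice of a tissue, so the values between mice are not independent of those within. Ratios per mouse used a pseudocount of 0.5 CPM. No 2 libraries were identical. Near-identical copies were sought with BLAST+ 2.17.0 (95% identity, matches of at least 50 bases). The procedure was also run on counts simulated from its own fitted means and spread, and no result here rests on that run.

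The members and lists were chosen with earlier results of these data known. Named with full values were members called and, in each of 9 role groups, the member with the smallest p; of the related lists, genes called or else the smallest p. Gapdh, Hif1a, Epas1, P4ha2 and Vegfa were added after their values were seen. Igha, Hbb-b1 and Hbb-b2 were not analysed here, and 1 related gene that was called is counted but not reported here. Alternatives were no replicate block, RLE and upper-quartile normalization, genes above 1% of a library left out, no filter, a mean of at least 5 CPM, non-robust spread, DESeq2 1.42.0, limma-voom (limma 3.58.1), each mouse left out and, chosen after seeing the data, the filter applied by tissue group.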

Additional observations from a re-analysis of the deposited data

How the results depend on the processing

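Over 13 alternatives the glycolysis median ran from 0.17 to 0.25 and the hypoxia median from 0.27 to 0.53, and 19 members were positive and 4 negative in every fit that tested them. Without the replicate block, that is without the pairing by mouse, 87 genes were called (51 higher) in place of 337 (205 higher), with 0 members, 3 related genes, and adjusted p = 0.0724 for Ero1l and 0.218 for Egln3. No filter on low counts gave 753 genes (442 higher) and 7 members (Slc2a1, Pfkfb3, Hif1a, Egln3, Bnip3, Ero1l and Ddit4). DESeq2 gave 532 genes (324 higher) and 6 members (Slc2a1, Hif1a, Egln3, Bnip3, P4ha2 and Ero1l). Limma-voom called 5 members higher (Slc2a1, Hif1a, Egln3, Bnip3 and Ero1l) and 1 lower (Gapdh), and non-robust spread left 1 (Ero1l). The number of all genes called is not given here for limma-voom or non-robust spread, nor the number tested without a filter. Member counts in those fits therefore have no background share beside them. Leaving out 1 mouse, with fewer samples, gave 83 to 281 genes (45 to 153 higher), 1 to 2 members and 1 to 6 related genes. Without mouse 1119 there were 83 genes, and without mouse 1199 there were 100 genes and 1 related gene. The member called was Ero1l without mouse 1119 or 1199, and Ero1l and Ddit4 without mouse 1192. The causes of the other changes were not tested. Some members changed sign. With upper-quartile normalization Hk1 was at -0.011 and Gpi1 at -0.0012, and with 1 mouse left out the log2 fold changes ran from -0.15 to 0.11 for Hk1, -0.29 to 0.20 for Hk2, -0.026 to 0.048 for Gpi1, -0.087 to 0.17 for Pfkl, -0.25 to 0.94 for Pfkfb4, -0.33 to 0.38 for Aldoc, -0.014 to 0.54 for Pgk1, -0.16 to 0.47 for Pgam1, -0.16 to 0.18 for Pdk1, -0.46 to 0.042 for Higd1a, -0.0024 to 0.30 for P4ha1 and -0.42 to 1.15 for Ankrd37. Without mouse 1192 the log2 fold change was 0.19 for Pkm, 0.23 for Ldha, 0.60 for Bnip3, -0.33 for Epas1 and 0.060 for Ndrg1, and without mouse 1119 it was 0.14 for Eno1 and 0.13 for Bnip3l. With 3 mice and 1852065 to 5096066 counts outside the mitochondrial rRNAs, members of few counts (Pfkm, Eno2, Ldhb) show no difference that could be detected at this depth.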
